A study of Mus musculus with 73 samples.

Results

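Chemokines are small secreted proteins that draw leukocytes along a gradient by acting on receptors of the migrating cell, and 10 chemokine genes made by lung phagocytes are described here: Ccl2, Ccl7, Ccl8, Ccl12, Ccl3, Ccl4, Ccl6, Ccl9, Cxcl2 and Cxcl16. They were chosen by name, as 10 of the 23994 mouse gene rows, and their transcripts were followed in all 73 cells of the study. Each cell was captured on a Fluidigm C1 microfluidic chip, and its polyadenylated RNA was amplified with SMARTer chemistry and sequenced from Nextera XT libraries. The cells came from the right lung lobes of 1 Csf1r-GFP mouse, a 10 week adult, 7 days after pneumonectomy, the surgical removal of the left lung lobe. In this genotype green fluorescent protein is driven by Csf1r, the receptor gene for the growth factor of mononuclear phagocytes. The cells were sorted as macrophages by CD45+, CSF1R-GFP+ and F4/80+, with Ly6G named in the label without a sign. No cells of an unoperated lung were analysed here, and with 1 mouse and 1 group the cells are not replicates, so every comparison below is among cells of that mouse and carries no p-value.

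The chemokines fall into functional groups. The monocyte chemoattractants Ccl2, Ccl7 and Ccl12 act on Ccr2, the receptor by which classical monocytes leave the bone marrow and enter inflamed lung, and Ccl8 belongs to the same gene family. Ccl3 and Ccl4 are the macrophage inflammatory proteins. Ccl3 acts on Ccr1, as do Ccl7 and the products of Ccl6 and Ccl9, a pair of related chemokines of rodents. Cxcl2 calls neutrophils through Cxcr2, and Cxcl16 is made as a membrane-anchored protein that Adam10 can release and that binds Cxcr6 on lymphocytes.

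In the mm10 genome (GRCm38, GENCODE vM21 annotation), 9 of the 10 protein-coding genes lie on chromosome 11. Ccl2 (chr11:82035571-82037453), Ccl7 (chr11:82045712-82047525), Ccl12 (chr11:82101845-82103400) and Ccl8 (chr11:82115185-82116799) form 1 block of 81229 bases, all on the plus strand. Ccl9 (chr11:83572919-83578636), Ccl6 (chr11:83587882-83593087) and Ccl3 (chr11:83647844-83649355), all on the minus strand, and Ccl4 (chr11:83662584-83664683, plus strand) form another of 91765 bases. Cxcl16 lies apart on the same chromosome (chr11:70453983-70459984, minus strand), and Cxcl2 lies on chromosome 5 (chr5:90903871-90905938, plus strand). Between transcripts of different members the longest identical stretch was 25 bases, for Ccl6 and Ccl9, and the next was 23 bases, for Ccl2 and Ccl7.

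RefSeq promoter sequences (GRCm38.p6) matched 6 of the 10 genes, and 5 are shown because their genes mark the main patterns of these cells: Cxcl2, found in nearly every cell; Ccl6 and Ccl9, neighbours with opposite levels in alveolar-macrophage-like cells; and Ccl12 and Ccl8, neighbours found mostly or only in cells with C1q. Each is the 250 bases before the RefSeq start, written 5′ to 3′ on the gene's strand. Capitals mark matches, on either strand, of the consensus site of the inflammatory factor NF-kB, of TGANTCA (the site of AP-1) and of TATAAA (the TATA box).
Cxcl2 (chr5:90903649-90903898, plus strand): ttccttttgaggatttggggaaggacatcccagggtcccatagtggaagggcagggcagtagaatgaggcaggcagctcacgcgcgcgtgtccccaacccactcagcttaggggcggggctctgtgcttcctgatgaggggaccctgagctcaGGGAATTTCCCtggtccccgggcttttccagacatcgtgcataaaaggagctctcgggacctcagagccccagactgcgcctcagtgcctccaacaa
Ccl6 (chr11:83593088-83593337, minus strand): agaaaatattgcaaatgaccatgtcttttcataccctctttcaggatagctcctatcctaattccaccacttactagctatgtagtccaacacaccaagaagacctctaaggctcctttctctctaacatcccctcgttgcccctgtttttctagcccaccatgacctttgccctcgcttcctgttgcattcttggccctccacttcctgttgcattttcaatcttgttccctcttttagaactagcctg
Ccl9 (chr11:83578637-83578886, minus strand): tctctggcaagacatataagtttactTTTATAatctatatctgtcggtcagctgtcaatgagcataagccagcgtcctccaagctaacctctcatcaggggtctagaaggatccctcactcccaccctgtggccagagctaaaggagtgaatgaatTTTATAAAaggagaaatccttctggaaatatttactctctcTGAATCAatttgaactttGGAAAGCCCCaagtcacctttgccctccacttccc
Ccl12 (chr11:82101595-82101844, plus strand): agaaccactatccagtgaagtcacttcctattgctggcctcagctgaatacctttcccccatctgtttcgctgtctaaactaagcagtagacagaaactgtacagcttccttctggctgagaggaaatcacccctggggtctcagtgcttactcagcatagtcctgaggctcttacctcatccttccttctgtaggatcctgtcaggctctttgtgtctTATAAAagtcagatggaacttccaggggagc
Ccl8 (chr11:82114935-82115184, plus strand): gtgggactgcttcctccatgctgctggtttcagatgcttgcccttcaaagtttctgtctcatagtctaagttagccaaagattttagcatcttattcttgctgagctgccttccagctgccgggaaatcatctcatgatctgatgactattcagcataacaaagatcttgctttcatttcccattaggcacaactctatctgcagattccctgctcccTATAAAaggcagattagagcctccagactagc

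The Cxcl2 window held the NF-kB consensus at -97 to -88 from the start on its own strand, overlapped by a match on the other strand at -96 to -87, and 1281 of 32851 promoter windows of the same length (3.90%) held the consensus. The window of Ccl9 held it at -35 to -26 on the other strand, and TGANTCA at -53 to -47, which 6.75% of all windows held. TATAAA was found in 12.4% of all windows. It stood at -31 to -26 before Ccl12 and at -32 to -27 before Ccl8, 2 neighbours with nearly the same spacing, and Ccl9 held it in 3 matches, of which 2 overlap. None of the 3 motifs was in the 250 bases before Ccl6. A match describes letters in a window and not a bound site.

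The cells were not one kind of macrophage. A clustering that left out 64 chemokine and chemokine receptor genes split them into 12 and 61 cells. The 12 cells carried 7 to 11 of 12 alveolar macrophage markers at 10 FPKM or more (fragments per kilobase of transcript, scaled to the depth of the cell, the deposited unit) and are called alveolar-macrophage-like, since 6 of their 10 leading genes were such markers. None of them had a detected transcript of Ly6c2, Ccr2 or the C1q genes. Among the other 61 cells, 9 had all 3 genes of C1q, the complement component made by interstitial macrophages, and are called C1q cells. They carried 4 to 9 of 11 interstitial macrophage markers, with Lyve1 and Cd163 not detected. The 11 include the 3 C1q genes that define the set, so part of this count was fixed by the choice of cells. Classical monocyte markers in C1q cells ran from 0 to 8 of 10 (median 1), and non-classical ones from 0 to 7 of 9. The remaining 52 cells, called the other cells, carried a median of 8 of 10 classical monocyte markers (range 0 to 10), so for most of them the markers were those of classical monocytes, against the label of macrophages. Of the 52, 4 instead carried at least 7 of 9 non-classical monocyte markers, and 3 of the 4 had Ccl3, among them the other cell with the most Ccl3 (4457 FPKM). Endothelial markers, at least 3 of 8 at 10 FPKM or more, were present in 3 cells, of which 1 was a C1q cell. Estimated mouse fragments per cell ran from 347003 to 3485929, with medians of 1591273 in C1q cells, 1057394 in alveolar-macrophage-like cells and 1421202 in the other cells. Median genes detected at 1 FPKM or more were 2069 in C1q cells, 2739.5 in alveolar-macrophage-like cells and 2189 in the other cells.

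Every cell had at least 1 of the 10 chemokines at 1 FPKM or more, and the genes fell into widespread, intermediate and rare ones. Cxcl2 was detected in 68 of 73 cells (93.2%, exact 95% interval 84.7 to 97.7), Ccl6 in 66 (90.4%, 81.2 to 96.1) and Ccl9 in 60 (82.2%, 71.5 to 90.2). An intermediate group followed, with Ccl2 in 39 cells (53.4%, 41.4 to 65.2), Ccl3 in 35 (47.9%, 36.1 to 60.0), Ccl4 in 25 (34.2%, 23.5 to 46.3) and Cxcl16 in 20 (27.4%, 17.6 to 39.1). Ccl7 in 11 cells (15.1%, 7.77 to 25.4), Ccl12 in 8 (10.96%, 4.85 to 20.5) and Ccl8 in 2 (2.74%, 0.334 to 9.55) were rare. The intervals cover counting error only, and those of neighbours in this order overlap except between Ccl9 and Ccl2. With every cell thinned to 347003 mouse fragments, the detections summed over the 10 genes came to 334, the same number as without thinning.

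**Figure D1:**
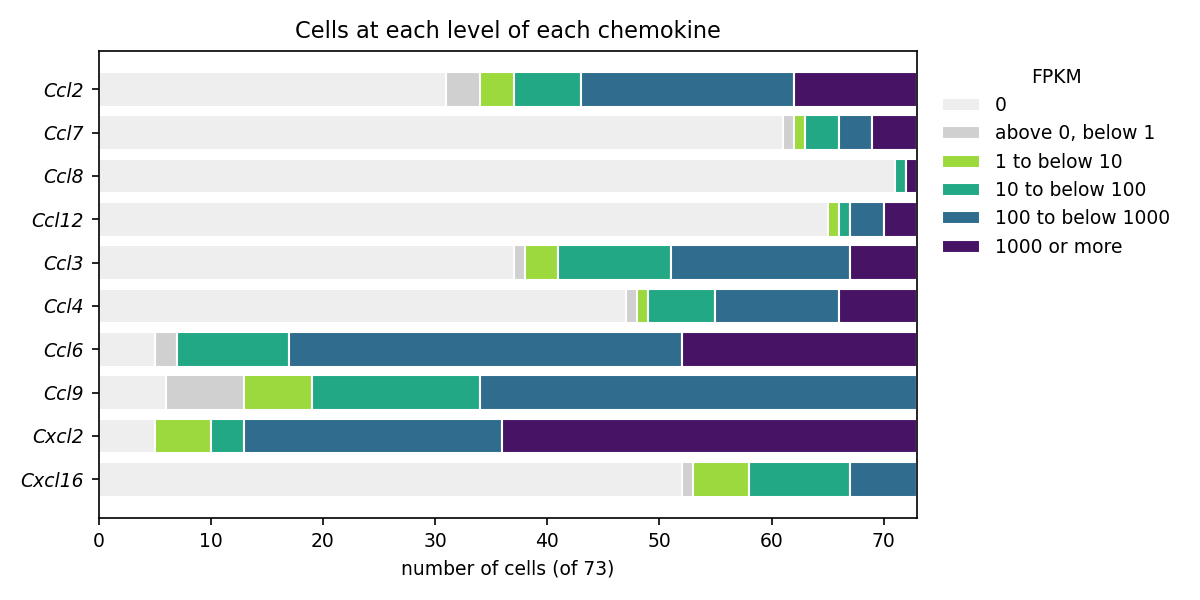
Number of cells, of 73, at each level of FPKM for each chemokine, one bar per gene. Cxcl2 was at 1000 FPKM or more in 37 cells and Ccl6 in 21, whereas Ccl9 and Cxcl16 reached that level in none.

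Rare genes were not low genes. The highest single value of all belonged to Ccl7, with 12617 FPKM in 1 cell, although Ccl7 was detected in only 11, and its 3 highest cells held 85.3% of its FPKM summed over all cells. Ccl12 reached 7762 FPKM in its highest cell, which held 68% of its summed FPKM. By contrast the highest cell held 8.85% of the sum for Cxcl2 and 6.72% for Ccl9. Ccl9 was widespread but moderate, with a median of 117 FPKM and a highest value of 807 FPKM, and Cxcl16 had a median of 31.2 FPKM among the 20 cells that held it. FPKM is scaled to transcript length, and estimated fragments ordered some genes differently. In cells with the gene, the medians were 1070 fragments and 139 FPKM for Ccl9, against 579 fragments and 344 FPKM for Ccl2. For Ccl7 they were 1332 fragments and 603 FPKM. All other comparisons of level between genes are in FPKM.

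Cells held a median of 4 of the 10 chemokines, with a range of 1 to 9. Together the 10 genes made up a median of 0.738% of a cell's mouse FPKM, with a lowest share of 0.00158% and a highest of 4.54%. By FPKM, Cxcl2 led in 27 cells, Ccl6 in 24, Ccl2 in 7, Ccl3 and Ccl9 in 4 each, Ccl7 in 3, Ccl4 in 2, and Ccl8 and Ccl12 in 1 each. The only member that led in no cell was Cxcl16.

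**Figure D2:**
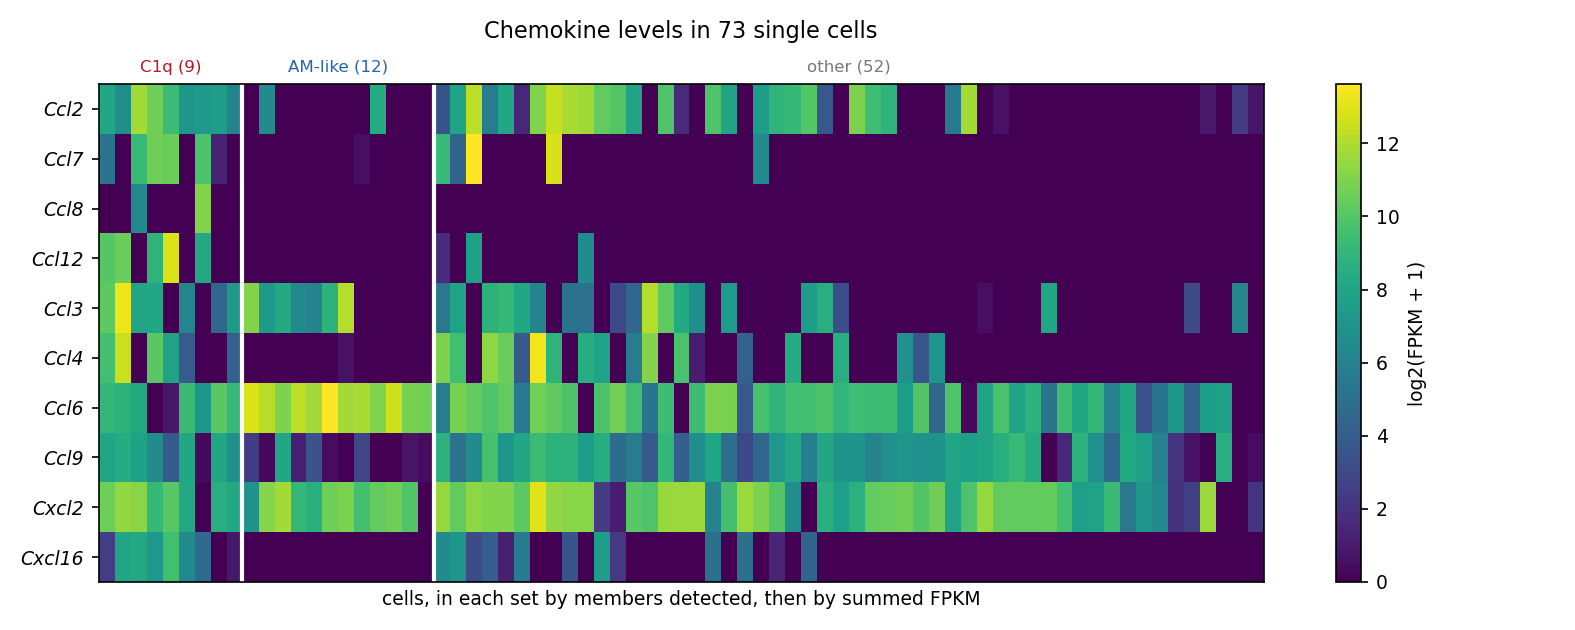
Levels of the 10 chemokines (rows) as log2(FPKM + 1) in 73 cells (columns), with the 9 C1q cells at the left, the 12 alveolar-macrophage-like (AM-like) cells next and the 52 other cells at the right. Within each set, cells are ordered by the number of members detected and then by their summed FPKM; C1q cells fill most rows, and AM-like cells fill mainly Ccl6, Cxcl2 and Ccl3.

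Cxcl2, the neutrophil chemoattractant, was the member least tied to a kind of cell. It was detected in 8 of 9 C1q cells (lowest 0, median 552, highest 2773 FPKM), 11 of 12 alveolar-macrophage-like cells (0, 1151 and 3361 FPKM) and 49 of 52 other cells (0, 1071 and 8203 FPKM). The ranges of the 3 sets overlapped, and the highest values lay among the other cells. Its mean log2(FPKM + 1) differed by -0.06 between C1q cells and the remaining 64, and by 0.58 between alveolar-macrophage-like cells and the remaining 61, and both signs depended on the setting: the first was 0.05 without the alveolar-macrophage-like cells, and the second was -0.59 with FPKM rescaled to the same total in every cell, where 14 cells clustered as alveolar-macrophage-like. The 5 cells without it were spread over all 3 sets. Of the 3 cells with endothelial markers, the 2 outside the C1q set had 3.28 and 4.82 FPKM of Cxcl2, far under the median of 1021 FPKM over all cells. Over all 73 cells Cxcl2 averaged 1270 ± 1310 FPKM (SD).

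Ccl6 and Ccl9, the neighbouring Ccr1 ligands, were both widespread but had opposite levels in alveolar-macrophage-like cells. Ccl6 was present in all 12 of these cells, at a lowest value of 1696, a median of 3629 and a highest of 12559 FPKM, against 54 of the other 61 cells at 0, 517 and 1980 FPKM. The overlap was small, with 3 of the 61 cells at or above the lowest of the 12. These 3 were among the other cells and carried 1, 5 and 6 of 12 alveolar macrophage markers at 10 FPKM or more. The 52 other cells carried a median of 1 such marker (range 0 to 6). Ccl6 was the leading chemokine in 10 of the 12. Ccl9 was detected in 5 of the 12 (lowest 0, median 0.507, highest 271 FPKM), against 55 of the other 61 (0, 134 and 807 FPKM). A single alveolar-macrophage-like cell, with 271 FPKM, exceeded the median of the rest, and the next highest of the 12 had 10.3 FPKM. The whole Ccl6 gene (5206 bases) is overlapped on the opposite strand by E230016K23Rik, which was detected in 11 cells. Where both were present, it stood at a median of 0.00269 of the Ccl6 FPKM, and at most at 0.897. In mean log2(FPKM + 1), Ccl6 was 4.36 higher and Ccl9 4.64 lower in alveolar-macrophage-like cells.

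The monocyte chemoattractants were nested within Ccl2. All 11 cells with Ccl7, both cells with Ccl8 and all 8 cells with Ccl12 also had Ccl2, which itself was found in 53.4% of cells. All 9 C1q cells had Ccl2. With independent detection within each of the 3 sets, 8.69 shared cells would be expected for Ccl7, 2 for Ccl8 and 6.62 for Ccl12. Ccl2 occurred without the other 3 genes in 26 cells, and 34 cells had none of the 4, among them 10 of 12 alveolar-macrophage-like cells, 24 of 52 other cells and 0 of 9 C1q cells. The levels did not follow the nesting: in the cell with the most Ccl7 (12617 FPKM), Ccl2 was 4883 FPKM, but in another with 603 FPKM of Ccl7, Ccl2 was 10.7 FPKM. Ccl2 reached its highest value, 5558 FPKM, in one of the other cells, which also held 7249 FPKM of Ccl7. The whole Ccl2 gene (1883 bases) is overlapped on the opposite strand by Gm17268, not analysed here, and without strand its reads cannot be told from those of Ccl2.

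Among the 9 C1q cells, Ccl2 ranged from 67.1 FPKM to 3361 FPKM with a median of 194 FPKM, and it was detected in all of them. In the other 52 cells it was detected in 28, with a median of 3.19 FPKM and a highest value of 5558 FPKM, so the highest cells lay outside the C1q set. Ccl7 was found in 6 C1q cells, at 1.57, 36.9, 591, 862, 1515 and 1655 FPKM, and in 5 other cells, at 19.7, 92.6, 603, 7249 and 12617 FPKM. Ccl12 was found in 5 C1q cells, at 296, 463, 1033, 1533 and 7762 FPKM, and in 3 other cells, at 2.30, 99.2 and 223 FPKM. The Ccl12 values of the 2 sets overlapped only among cells without it. Ccl8 was found in C1q cells alone, at 2123 FPKM in one and 87.3 FPKM in another. Its absence among 52 other cells allows a share of up to 5.77%, and among 12 alveolar-macrophage-like cells of up to 25%.

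Ccl3 and Ccl4, whose genes lie side by side, were found together in 17 cells, with 11.99 expected if detected independently. Ccl3 occurred without Ccl4 in 18 cells and Ccl4 without Ccl3 in 8. The alveolar-macrophage-like cells stood apart here: 7 of the 12 had Ccl3, at 67.2 to 4351 FPKM, and 0 had Ccl4 at 1 FPKM or more, which allows a share of up to 25%. In C1q cells 5 of 9 had both genes, and in the other cells 12 of 52. Where both were present, their ratio was not fixed: log2 of Ccl3 over Ccl4 FPKM ran from -7.18 to 6.76 with a median of -1.36, and Ccl3 was the higher in 7 of 17 cells. Ccl3 reached its highest level, 9814 FPKM, in a C1q cell that had 5912 FPKM of Ccl4. Ccl4 reached 10230 FPKM in one of the other cells, which had 70.3 FPKM of Ccl3.

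Cxcl16, the membrane-anchored member, was detected in 7 of 9 C1q cells (lowest 0, median 90.7, highest 720 FPKM), 0 of 12 alveolar-macrophage-like cells and 13 of 52 other cells (0, 0 and 194 FPKM). Among the 6 cells at 100 FPKM or more, 4 were C1q cells. The highest of the other cells, with 194 FPKM, had C1qa at 145 FPKM and C1qb at 835 FPKM, and lacked only C1qc. C1qb was detected in 3 of the 52 other cells, so that set is not free of C1q transcripts. Transcripts of the proteases that release it were common, with Adam10 in 53 cells and Adam17 in 44. Its receptor gene Cxcr6 was detected in 0 of 73 cells, a count compatible with a share of at most 4.11%. The Cxcl16 gene overlaps Zmynd15 by 552 bases on the opposite strand (chr11:70459433-70466202), and SMARTer libraries do not keep strand, so reads of the shared stretch cannot be told apart. All 9 cells with Zmynd15 had Cxcl16, at a median Zmynd15 to Cxcl16 ratio of 0.0676 in FPKM (range 0.0259 to 0.975). Zmynd15 was highest, at 120 FPKM, in a C1q cell with 150 FPKM of Cxcl16.

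**Figure D3:**
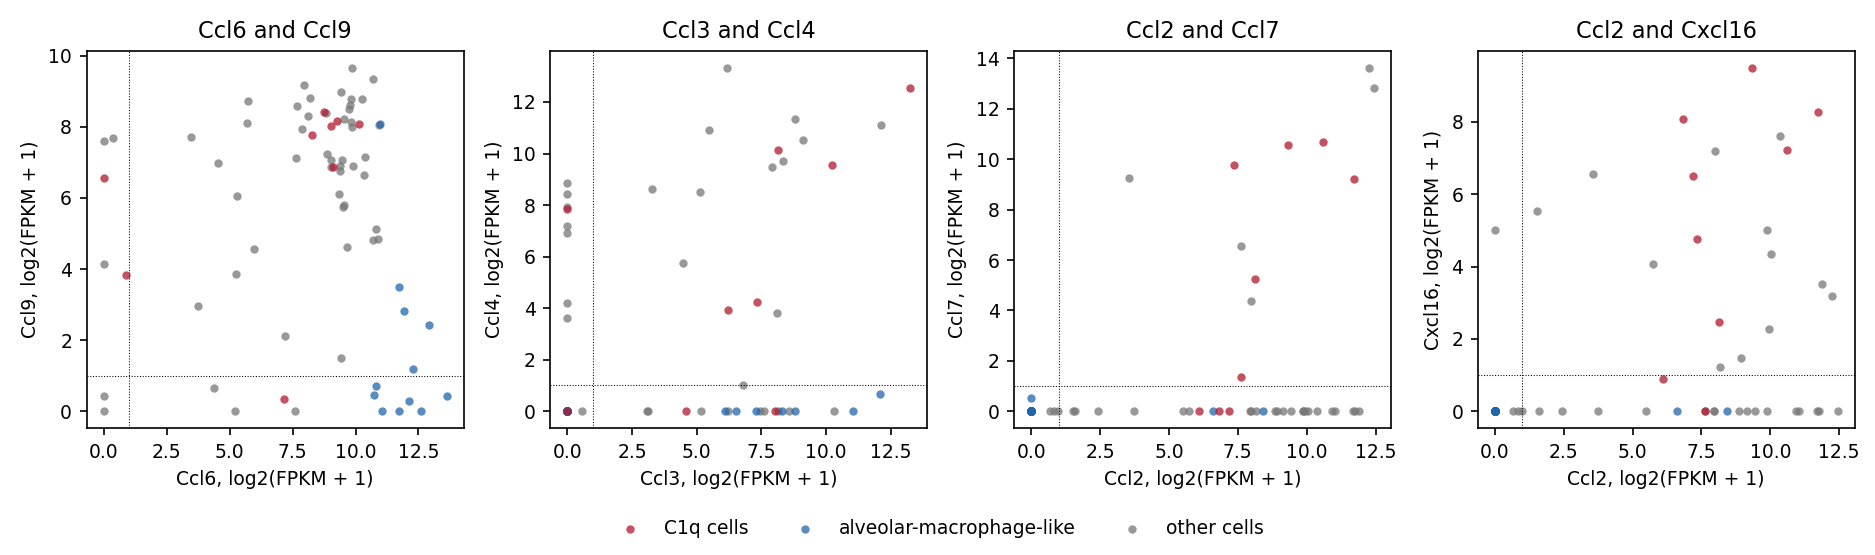
Pairs of chemokines in each cell as log2(FPKM + 1), with C1q cells in red, alveolar-macrophage-like cells in blue and other cells in grey; dotted lines mark 1 FPKM. Alveolar-macrophage-like cells lie at high Ccl6 with little Ccl9 and on the axis without Ccl4, and every cell with Ccl7 lies to the right of the Ccl2 line.

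C1q cells held more of the 10 chemokines than the rest, a median of 7 (range 6 to 9), against 4 (1 to 9) in the remaining 64 cells. In mean log2(FPKM + 1), the difference between C1q cells and the remaining 64 was 5.37 for Ccl12, 4.47 for Ccl7, 4.41 for Ccl2, 4.41 for Cxcl16, 3.21 for Ccl3, 2.99 for Ccl4 and 1.95 for Ccl8. Ccl9 was at 1.05, just past 1 unit, and its difference was 0.18 without the alveolar-macrophage-like cells, 0.68 without the cells with endothelial markers and 0.80 with sets and detection taken at 10 FPKM. Ccl6 was lower, at -1.46, but at -0.66 without the alveolar-macrophage-like cells, which hold the most Ccl6. That makes 8 of the 10 members higher by 1 unit or more, and 1 lower. Among the 6151 genes detected in at least 8 cells, 12.2% were higher and 9.49% lower by as much. Ccl8 did not reach 8 cells, and Ccl7 and Ccl12 reached it only with their C1q cells, so the count of members is a description and cannot be read against that share. The median C1q cell had more fragments and fewer genes than the median of all 73 cells, and the part of this in the differences was not tested beyond the thinning.

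Alveolar-macrophage-like cells held fewer, a median of 3 (range 1 to 4), against 5 (1 to 9) in the remaining 61 cells. By 1 unit or more, 2 members were higher, Ccl6 at 4.36 and Ccl3 at 1.67, and 18.2% of the 6151 genes were. With FPKM rescaled to the same total the values were 2.85 for Ccl6 and 1.11 for Ccl3. In that setting 14 cells clustered as alveolar-macrophage-like, so the rescaling and the change of cells cannot be told apart. The members lower by 1 unit or more were 6, namely Ccl9 at -4.64, Ccl2 at -3.82, Ccl4 at -3.22, Cxcl16 at -1.72, Ccl7 at -1.49 and Ccl12 at -1.09, and 9.49% of the genes were. Ccl4, Ccl7, Ccl8, Ccl12 and Cxcl16 were each detected in 0 of the 12, so those that reached 8 cells did so outside this set, and their count is a description. Ccl2 was detected in 2, at 95.8 FPKM and 344 FPKM. Their summed share was not the smaller one, with a median of 1.23% of mouse FPKM (0.712 to 2.81) in alveolar-macrophage-like cells, against 0.576% (0.00158 to 4.54) in the remaining 61 cells.

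**Figure D4:**
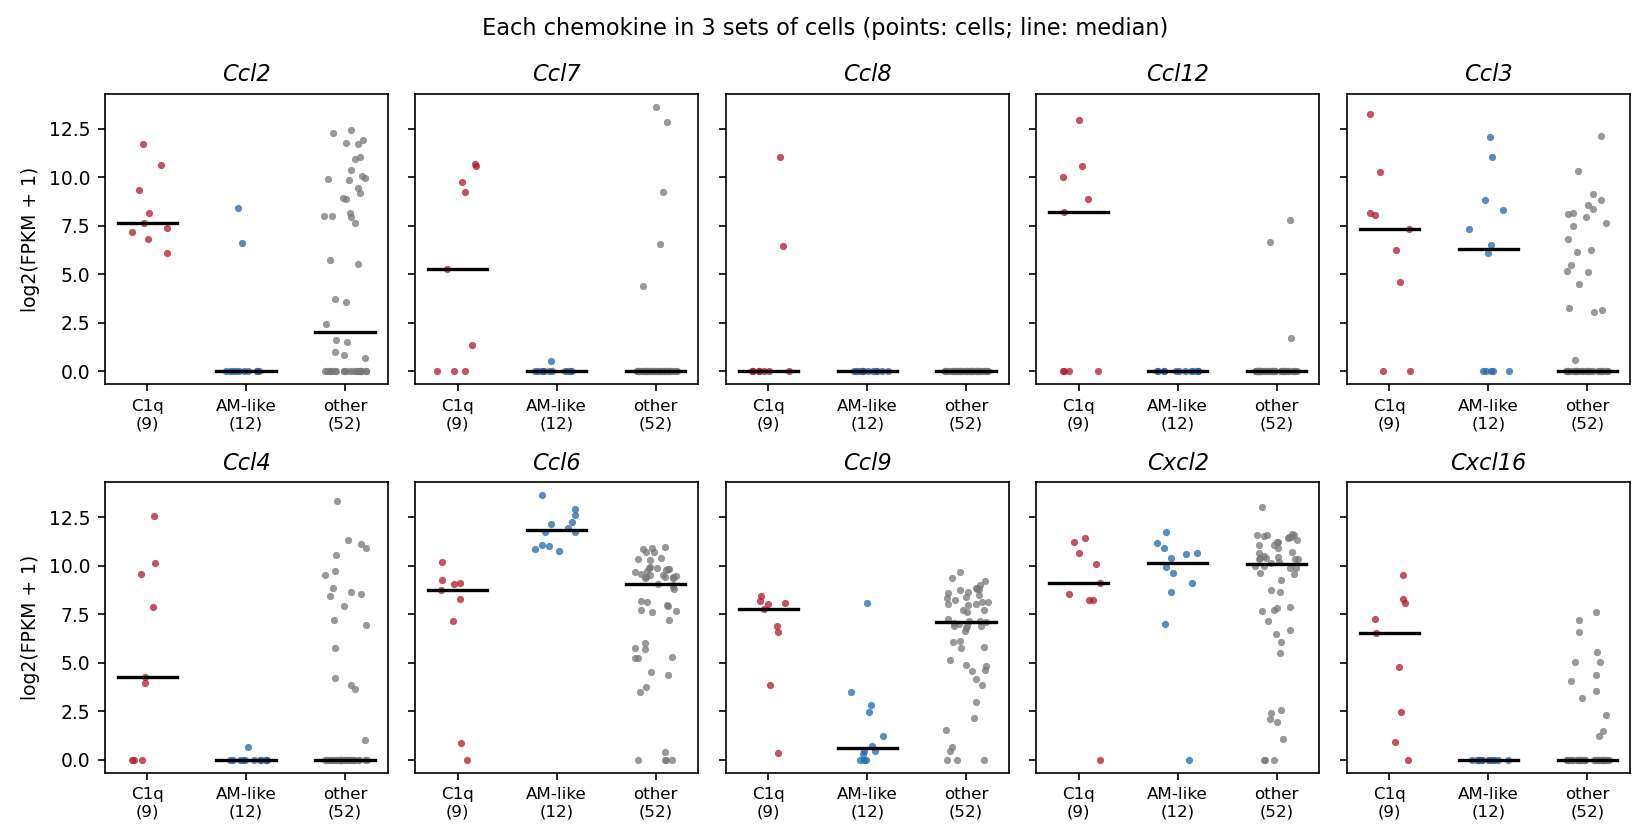
Each chemokine as log2(FPKM + 1) in single cells (points) of the C1q, alveolar-macrophage-like (AM-like) and other sets, with the number of cells in brackets and a line at each set's median. Ccl2, Ccl12 and Cxcl16 had their highest medians in C1q cells and Ccl6 in AM-like cells, while the ranges of Cxcl2 overlapped in all 3 sets.

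Across the 45 pairs of members, ranks of FPKM over the 73 cells went together more than for genes at large. The median Spearman rho was 0.15, against 0.036 over all pairs of the 6151 genes, and 11 of 45 pairs reached 0.3, against a share of 1.9% of all pairs. Without Ccl8, the member in fewer than 8 cells, the median was 0.16 over 36 pairs, of which 10 reached 0.3. These correlations describe cells of 1 mouse that share a library preparation and differ in depth, and ties at 0 weigh on the rare genes. The closest pair was Ccl7 and Ccl12 (rho 0.59), found together in 6 cells where 1.21 were expected. Ccl12 and Cxcl16 followed (0.50), then Ccl2 and Cxcl16 (0.48), Ccl7 and Cxcl16 (0.43) and Ccl4 and Cxcl16 (0.39). Cxcl16 thus stood in 4 of the 5 closest pairs. Of its 20 cells, 19 had Ccl2, with 10.7 expected over all cells and 14 when the expectation was summed over the 3 sets. The 4 genes of the Ccl2 block had a median rho of 0.34 over their 6 pairs, the block from Ccl9 to Ccl4 0.079 over its 6, and pairs between the blocks 0.036 over 16. Ccl2 had a rho of 0.37 with Ccl7 and 0.32 with Ccl12, Ccl8 and Ccl12 shared 1 cell, and Ccl3 had a rho of 0.37 with Ccl4.

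Among the 36 pairs without Ccl8, 26 were found together in more cells than expected over all cells, and 58.7% of all pairs of the 6151 genes were. Against the number expected within the 3 sets, 24 of the 36 pairs were above, and 58% of all pairs were. With Ccl8, the counts were 32 and 27 of 45. For Ccl7 and Ccl12 the expectation within sets was 3.62 cells, still under the 6 observed. Among the 52 other cells alone, where 36 pairs could be ranked, the median rho was 0.21. No median over all genes was computed within these cells, so this value has no background. Single values were 0.50 for Ccl7 and Ccl12, 0.41 for Ccl3 and Ccl4 and 0.39 for Ccl2 and Cxcl16. The first of these rests on 2 shared cells, with Ccl7 in 5 and Ccl12 in 3 of the 52.

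Ccl6 behaved differently in the pool and within a set. The 5 lowest pairs over all cells were Ccl12 and Ccl6 (rho -0.28), Ccl4 and Ccl6 (-0.19), Ccl8 and Ccl4 (-0.12, with 0 cells in common), Ccl8 and Ccl6 (-0.12) and Ccl6 and Cxcl16 (-0.10). Within the 52 other cells, Ccl6 and Cxcl16 had a rho of 0.31. Ccl6 and Ccl9 had -0.07 over all cells and 0.33 in the other cells. Ccl2 and Ccl6 had 0.06 over all cells and 0.49 in the other cells. Over all cells, Ccl6 also went with the number of genes detected per cell (rho 0.55), a number that was highest in alveolar-macrophage-like cells, and less with the number of mouse fragments (0.18). Ccl2 had the highest rho of any member with mouse fragments (0.38). Whether depth had a part in the pairs within the other cells was not tested.

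All 25 cells with Ccl4 also had Cxcl2 and Ccl9, pairs singled out after their values were seen. The numbers expected were 23.3 for Cxcl2 and 20.5 for Ccl9. At 100 FPKM or more for both genes, Ccl4 was found with Cxcl2 in 17 of its 18 cells and with Ccl9 in 13.

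**Figure D5:**
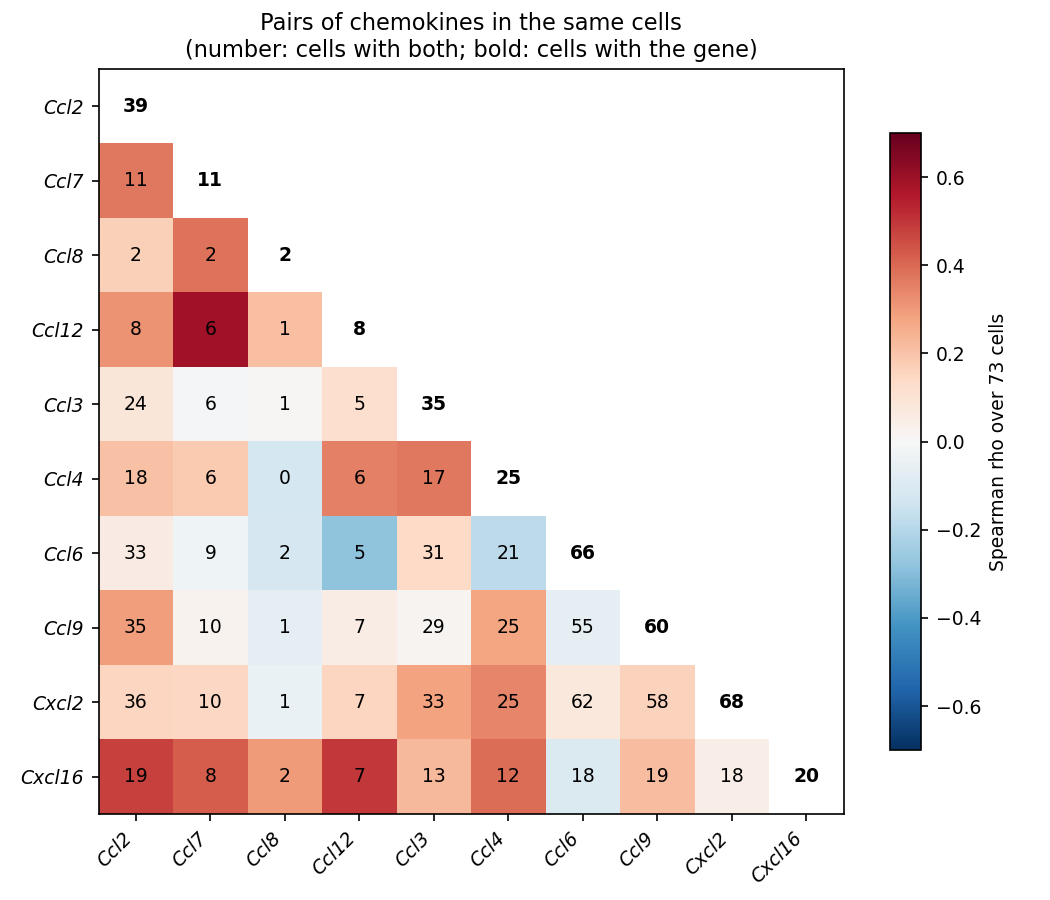
Spearman rho of FPKM over 73 cells for the 45 pairs of chemokines (colour, red above 0 and blue below), with the number of cells holding both genes in each square and the number holding the gene on the diagonal in bold. Cxcl16 and the Ccl2, Ccl7 and Ccl12 genes form the reddest squares, and the blue squares lie mostly in the row and column of Ccl6.

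Each chemokine was also set beside the 6151 genes detected in at least 8 cells, to find those ranked most like it. Ccl6 had 50 genes at a rho of 0.5 or more (0.813%), the most of any member. They were led by Ltc4s, the leukotriene C4 synthase (0.68), Hebp1 (0.65) and Atp6v0d2, a proton pump subunit (0.65). In the other cells these 3 values were 0.38, 0.29 and 0.28. All 3 genes were found in 15 or 16 cells that each had Ccl6, a gene found in 66 of 73 cells. Ccl9 had 8 such genes (0.13%), and the closest were S100a6 (0.57), the surface antigen gene Cd52 (0.55) and Crip1 (0.54). Cd9, a tetraspanin, ranked most opposite to Ccl9, at -0.59.

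Cxcl16 had 16 such genes (0.26%). Its closest was the overlapping Zmynd15 (0.69), followed by C1qa (0.65) and Cd74, the class II invariant chain (0.60). Ccl12 had 7 (0.114%), led by Basp1 (0.66), C1qa (0.63) and C1qc (0.59). Ccl7 had 14 (0.228%), led by Ccl12 (0.59), the complement receptor gene C3ar1 (0.58) and Basp1 (0.58). Of the 11 cells with Ccl7, 10 had C3ar1, a gene found in 17 cells. For Ccl8, with 2 cells, the highest values were 0.45 with C1qc, 0.44 with Stambp and 0.42 with C1qa.

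Cxcl2 had 2 genes at 0.5 or more (0.0325%), its relative Cxcl1 (0.56) and the interferon-inducible Ifi205 (0.52), with Plek next (0.48). Cxcl1, which also acts on Cxcr2, was found in 40 cells, all of them with Cxcl2, a gene found in 68 of 73 cells. Ccl4 had 1 (0.0163%), the atypical receptor gene Ccrl2 (0.50), followed by Gm6377 (0.43) and Il1b, the inflammatory cytokine (0.43). Il1b was found in 62 of 73 cells, among them all 25 with Ccl4. Ccl2 also had 1 (0.0163%), the stress-induced transcription factor gene Atf3 (0.50), followed by the phagocyte receptor gene Trem2 (0.48) and Cxcl16 (0.48). Ccl3 had none at 0.5 or more, and its closest were Hsd17b12 (0.44), Nagk (0.41) and Ccng1 (0.41).

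Of 27 other chemokine genes, 13 were detected in at least 1 cell, near the share of 49.5% among all genes, and 2 in at least 8 cells, where 25.6% of all genes were. The pair comprised Cxcl1 in 40 cells and Cxcl10, an interferon-induced chemokine, in 16. Cxcl1 reached 5279 FPKM and was found in 8 of 9 C1q cells, 10 of 12 alveolar-macrophage-like cells and 22 of 52 other cells. Pf4, platelet factor 4, was found in 7 cells, of which 5 were C1q cells. Ccl17 and Ccl24 were each found in few cells (3 and 4), but reached 7841 FPKM and 2927 FPKM.

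Of 23 receptor genes, 11 were detected in at least 1 cell and 7 in at least 8, near the shares of 49.5% and 25.6% among all genes. Ccr2 was found in 5 of 9 C1q cells, 0 of 12 alveolar-macrophage-like cells and 45 of 52 other cells. Of the 39 cells with Ccl2, which include all cells with Ccl7, Ccl8 or Ccl12, 31 also had Ccr2, with 26.7 expected. The other genes of the block shared fewer cells with Ccr2 than expected: Ccl7 7 against 7.53, Ccl12 4 against 5.48 and Ccl8 0 against 1.37. These expectations are over all cells, and of the 12 alveolar-macrophage-like cells 0 had Ccr2 and 2 had Ccl2. Ccr1 was found in 44 cells, all of which had Ccl3, Ccl6, Ccl7 or Ccl9, as had 72 of 73 cells in all. Cxcr2 passed 1 FPKM in 62 cells but 10 FPKM in 8, with a median of 2.38 FPKM. With Ccl9, Ccr2 had a rho of 0.53 over all 73 cells. Alveolar-macrophage-like cells had no Ccr2 and little Ccl9, and their part in this value was not tested. The 7 receptors compared had a median rho of 0.25 with Ccl9, against 0.015 over all genes. All 7 lay above 0 with Ccl9, and also with Ccl2.

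Genes of the NF-kB pathway and its early targets, 15 of 15 of which were detected in at least 8 cells, ranked with some members more than others. With Cxcl2 their median rho was 0.17, against -0.018 over all genes, 13 of 15 lay above 0, and Nfkbia, the NF-kB inhibitor, was highest (0.45). With Ccl9 the median was 0.18, against 0.015 over all genes, and 13 of 15 lay above 0. With Ccl4 it was 0.17, against 0.016 over all genes, and 11 of 15 lay above 0. With Ccl6 it was 0.011, against 0.094 over all genes, and 8 of 15 lay above 0. Of the remaining members, Ccl2 had the highest median, 0.13 against 0.038 over all genes, with 12 of 15 above 0. Ccl7 also had 12 of 15 above 0, at a median of 0.062 against 0.021. The lowest median was that of Ccl8, -0.023 against -0.068, with 5 of 15 above 0. The share of all genes above 0 was not computed, so these counts have no background. Zfp36, which marks inflammatory messages for decay, had a rho of 0.38 with Cxcl2, the highest of 4 mRNA decay genes. The median of the 4 with Cxcl2 was 0.18, against -0.018 over all genes, and the lowest was Zfp36l2 at -0.075.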

How the data were processed

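Polyadenylated RNA of 73 single cells of 1 mouse was measured. Per the submitters' processing notes, reads were handled with CASAVA 1.8, TopHat2 2.1.0, Cufflinks 2.2.1 and Cuffnorm on mm10; which annotation and cell filters they used was not given in the sources used here. All levels come from the deposited FPKM table, which the authors made with these tools. The authors' other deposited table holds a signal, fragment counts divided by a factor per cell. Of 99755 values between 0.5 and 20 steps, 99.6% lay within 0.1 of a whole step, so dividing by the step gave estimated fragments. These were used for depth, thinning and medians of fragments per gene, with no count model. Spike-in rows (100) were left out, and 0 columns were unmatched.

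A gene was called detected at 1 FPKM, with exact Clopper-Pearson 95% intervals. For a count of 0, the share of 3 cells is given. Cells were clustered by Ward's method on 10 principal components of 1000 variable genes, without 64 chemokine and receptor genes, cut into 2 to 6 clusters by silhouette with at least 5 cells each. Naming a cluster needed markers of the type as 3 or more of its 10 leading genes. The leading genes of the 61-cell cluster included the classical monocyte markers Plac8, S100a4, Ccr2 and Ly6c2. It met the rule, but it also held the C1q cells and was left unnamed. Mean log2(FPKM + 1) was compared between sets, with 1 unit as the size named, a scale that understates differences of low genes. Expected joint counts assume independent detection. No doublet caller was run on 73 cells, and no columns held identical values. The methods were tested on simulated data. The members, gene lists and sets were chosen with earlier results of these data known. The text names the 10 members, the 3 genes ranked most like each, the 5 highest and 5 lowest pairs, 6 related pairs and genes of the lists. Python 3.11.15, numpy 2.4.6, pandas 2.3.3, scipy 1.17.1 and scikit-learn 1.9.0 were used.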

Additional observations from a re-analysis of the deposited data

Results flagged for a closer look

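A spike-in RNA, outside the comparisons above, was flagged as a signal in data not otherwise used: it held a median of 36.6% of the estimated fragments of a cell, in the only spike-in row with values.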

How the results depend on the processing

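The counts of detections and pairs, the median rho and the number of members 1 unit apart between sets stayed within 1.5 times of the reported values in every setting run for them, apart from single genes and pairs. At 100 FPKM, a threshold added after seeing the data, Ccl2 was found in 30 cells, Ccl3 in 22, Ccl9 in 39, Cxcl16 in 6, and Ccl3 with Ccl4 in 8. With any value above 0, Ccl9 was found in 67 cells and with Ccl6 in 63, and no clusters met the minimum size, so the alveolar-macrophage-like set could not be formed, while the 9 C1q cells were the same in number. Single differences that changed sign (Cxcl2) or passed under 1 unit (Ccl6 and Ccl9 in C1q cells) are given above with their settings. The alternative of 2 clusters equals the reported one. Expectations within sets, ranks in the other cells alone and the C1q comparison without alveolar-macrophage-like cells were added after seeing the data. With no filter on low genes, the median rho of all 70418778 gene pairs was -0.000452. No paired analysis was possible because all cells belong to 1 group. A transcript missing from a cell was not detected in its library, which does not show that the cell lacked it. Thinning moved Ccl12 to 7 cells, and 1 mouse gives no spread between animals.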
